A study of Vitis vinifera with 16 samples.

Results

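The response of grapevine leaves to a lyophilized preparation of Bacillus UdG (BL) was compared with leaves of the non-treated control sprayed with water (NTC). The comparison took the 4 BL and the 4 NTC libraries, 8 of the 16 libraries of the series, and every gene that reached 0.5 FPKM (fragments per kilobase of transcript, scaled to library size) in at least 3 of these 8 libraries, which left 19674 genes. All plants were Vitis vinifera cv. Garnacha Blanca, one-year-old vines bench-grafted on rootstock 110R and grown in a greenhouse without any inoculated pathogen. Leaves were collected 24 h after spraying, and a replicate was a pool of leaves, 2 per plant over 5 plants. The other 8 libraries came from leaves sprayed with fresh cells of the same strain (BF, 4 libraries) or with Akivi, an extract of the plant Dittrichia viscosa (4 libraries).

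Bacillus UdG is a strain of Bacillus velezensis under development as a biocontrol product. For BL the cells were grown in a pilot bioreactor, mixed with skimmed milk and freeze-dried, whereas for BF they were grown in flasks in another version of the medium and concentrated in a smaller volume of their own supernatant. No library came from leaves sprayed with milk or medium alone, so the response to the bacterium cannot be told apart from that to the carrier and medium residues. The treatments also corresponded to the blocks of the greenhouse, so that block and treatment cannot be told apart. Defining genes of leaf tissue could not be checked, because the deposited table gives identifiers without gene names. Genes are called named below where the sources give them a name or a function, which holds for 102 identifiers.

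Many plant-associated bacilli live on leaf and root surfaces, release antimicrobial lipopeptides and are perceived by the plant through conserved bacterial molecules. In several plants such contact leads to induced systemic resistance, a state in which jasmonate, ethylene or salicylate signalling prepares tissues for a faster defence. Plant leaves answer microbes on several fronts. They modify the pectin and xyloglucan of their walls, sequester iron, which microbes need and which feeds oxidative chemistry, and shift resources between growth and defence.

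BL was followed by changes in both directions, most of them small. In the fit of all 8 libraries (limma, Benjamini-Hochberg adjusted p of at most 0.05) 1967 genes rose, 10.0% of those tested, and 1432 genes fell, 7.28% of those tested. A called gene whose log2 fold change reached 1.4 up or down is termed a differentially expressed gene (DEG) here, and by that definition 297 genes rose (1.51%) and 217 fell (1.10%). Of the called genes, 1290 of the rises and 1001 of the falls were under 1 on the log2 scale, and the median log2 fold change over all genes tested was 0.03. Single libraries moved these counts: without BL replicate 4 there were 1300 rises and 953 falls, without NTC replicate 4 there were 940 falls, and without NTC replicate 3 there were 357 DEGs that fell. DEGs that rose had a median over genes of 1.31 FPKM in NTC and 4.88 FPKM in BL. DEGs that fell went from a median of 9.19 FPKM in NTC to 2.51 FPKM in BL. Over all genes tested the medians were 9.66 FPKM in NTC and 10.1 FPKM in BL. A gene could pass the filter through its higher group alone. The low NTC levels of the rises are therefore no finding.

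**Figure D1:**
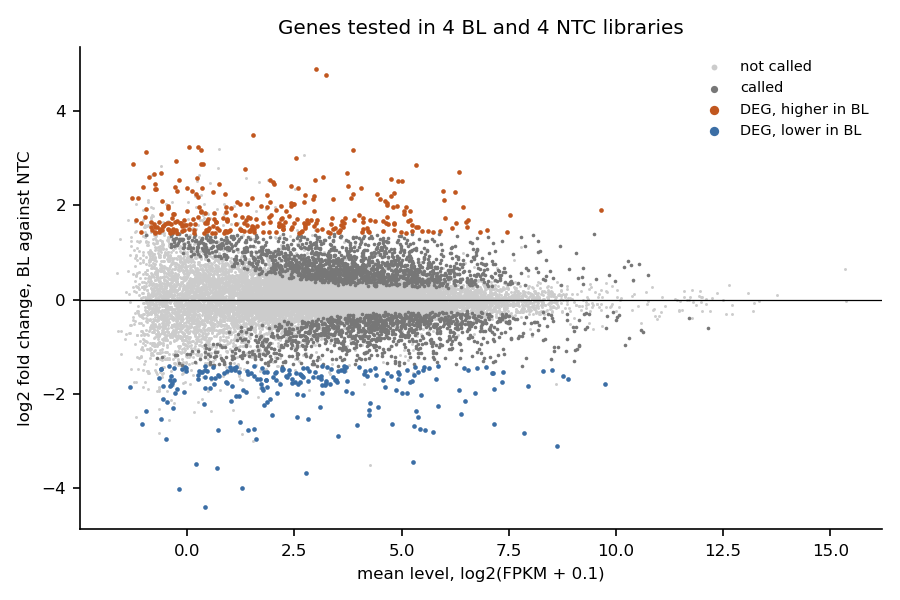
Log2 fold change of BL over NTC against mean log2(FPKM + 0.1) for the 19674 genes tested in 8 libraries, with called genes in dark grey and DEGs in orange (higher) or blue (lower). Most genes lie near 0, where the median is 0.03, and the called log2 fold changes run from -4.40 to 4.88.

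The control libraries were not alike. The 4 BL libraries held 12282557 to 16991911 fragments in genes and the 4 NTC libraries 13078383 to 16124864. On the first principal component, which carried 39.73% of the variance of the 8 libraries, NTC replicate 3 lay at 15.62, the other NTC libraries at 44.02 to 52.11 and the BL libraries at -43.95 to -30.7. NTC replicate 3 was thus the control nearest to BL on that component. On the second, with 16.91% of the variance, it lay at -59.32, the BL libraries at -4.55 to 11.23 and the other controls at -15.88 to 36.19. There it was the control farthest from BL. The study had left NTC replicate 3 and BL replicate 1 out of its own testing. Without those 2 libraries 1987 of 19360 genes rose (10.3%) and 1535 fell (7.93%). Called in both fits were 2649 genes, 77.9% of the 8-library calls and 75.2% of the 6-library calls, and 0 had opposite signs. DEGs that fell numbered 374 without the 2 libraries, against 217 with them. Values without them are given below for the named genes whose call they change, and the part of NTC replicate 3 in any single result was not tested.

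Every BL library lay above every NTC library for 2461 genes (12.5% of those tested) and below every NTC library for 1764 genes (8.97%). Of the DEGs, 270 of the 297 that rose and 186 of the 217 that fell had groups without overlap. Some DEGs lay near the counting floor, taken as 3 fragments: 18 of those that rose held at most 3 fragments in each NTC library, and 15 of those that fell held at most 3 in each BL library. The mean of the higher group was a median of 1.95 times that floor for the rises (0.639 to 4.13). For the falls it was 1.90 times (0.535 to 7.16), so no gene is called on or off from these counts. Of 182 tested genes with an ENSRNA identifier 7 rose (3.85%, beside 10.0% of all genes) and 13 fell (7.14%, beside 7.28% of all genes).

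Described first are the 15 genes that the study picked as markers of Bacillus treatment and measured again by RT-qPCR. All 15 passed the filter, 14 were called higher and 1 lower, and each had groups that did not overlap. The study chose these genes on 6 of these 8 libraries, so their count is a description and not independent evidence of direction. The same holds for every group of named genes below: nearly all were listed in the study because they changed after BL, BF or Akivi against these controls, so the choice largely fixed their direction, and nothing is read from their counts against the 10.0% and 7.28% of all genes that rose and fell. Their median log2 fold change was 2.46, beside 0.03 over all genes. The forward primers of 4 of them are printed to identify the transcript stretch that marks each one, from the study's RT-qPCR design and in lower case throughout: a pectin methylesterase inhibitor and a CONSTANS-like gene with the steepest rises, the abundant thiazole enzyme, and the sulphate-assimilation gene that fell.
B1 invertase/pectin methylesterase inhibitor, forward: gctgcaagaaatgtggaatgc
B2 CCT motif constans-like, forward: caagtgccagacaccatcct
B12 thiazole biosynthetic enzyme, forward: tggccaggcctaatgtgaag
B5 5'-adenylylsulfate reductase APR1, forward: aagttcagggcttggtgagg

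The reverse primer of B1 is tcgactcttgtgactttgttttcc and that of B5 is gggtctcacttctcacacgg, each paired with the forward primer printed above. These primers target the transcripts whose FPKM values showed the largest called rise of all genes tested and the only fall among the markers.

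**Figure D2:**
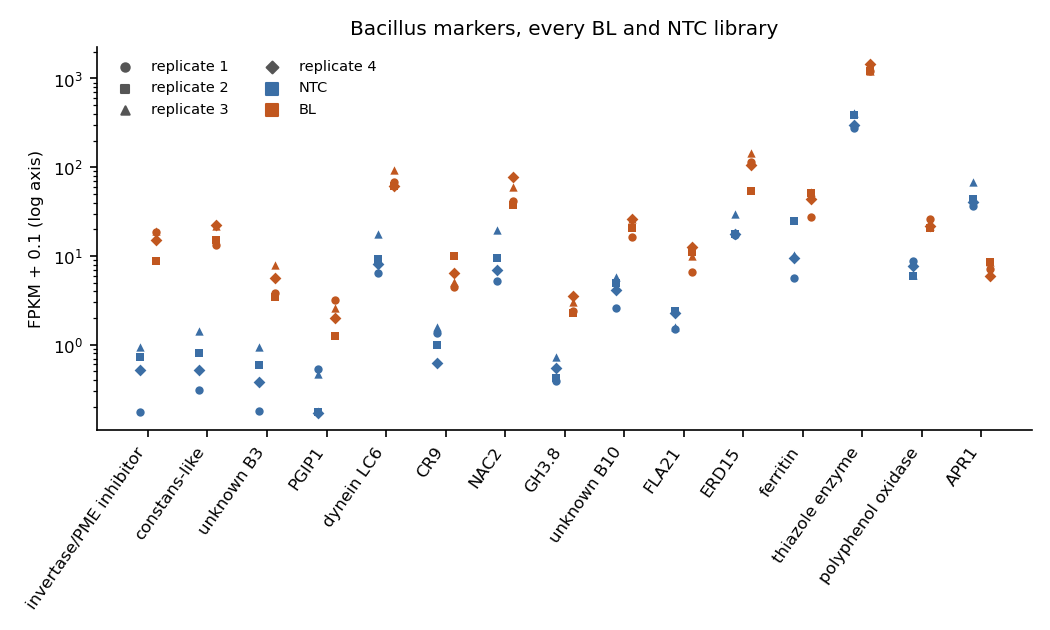
FPKM + 0.1 of the 15 Bacillus markers in each of the 4 BL (orange) and 4 NTC (blue) libraries, on a log axis, with a symbol for each replicate number. In 14 markers every BL library is above every NTC library, and in the APR1 gene every BL library is below.

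The steepest rise belonged to the cell wall. The invertase/pectin methylesterase inhibitor gene VIT_16s0022g00860 (B1 above), whose product belongs to a family that blocks enzymes removing methyl groups from pectin or cleaving sucrose, stood at 18.5, 8.71, 18.9 and 15.2 FPKM in BL replicates 1 to 4. In NTC it was at 0.0729, 0.629, 0.853 and 0.419 FPKM. No BL library was under 8.71 FPKM and no control over 0.853 FPKM, and the ratio of the means was 31.0. On the log2 scale it rose by 4.88 (SE 0.49, adjusted p = 0.000187).

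A polygalacturonase inhibiting protein, PGIP1 (VIT_13s0064g01370), of a class that restrains pectin-degrading enzymes of fungi, was at 3.12, 1.14, 2.48 and 1.93 FPKM in BL and at 0.435, 0.0765, 0.363 and 0.0715 FPKM in NTC. Its level stayed low in both groups, and the libraries did not overlap (log2 fold change 2.86, SE 0.48, adjusted p = 0.00278). Every control was under 0.5 FPKM, so the gene passed the filter through its BL libraries alone, and these values only describe it. The arabinogalactan protein FLA21 (VIT_01s0011g01980), a cell surface glycoprotein, rose from 1.84 ± 0.461 FPKM (SD, n = 4) to 9.94 ± 2.58 FPKM (log2 fold change 2.37, adjusted p = 0.000152).

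Xyloglucan endotransglucosylase/hydrolases (XTHs) cut and rejoin the xyloglucan chains between cellulose fibrils. The most abundant named one, XTH15 (VIT_05s0062g00250), was at 358, 265, 300 and 202 FPKM in BL and at 59.5, 77.8, 144 and 59.4 FPKM in NTC. The 144 FPKM of NTC replicate 3 was the highest control value and still below the lowest BL value (log2 fold change 1.79, SE 0.28, adjusted p = 0.00238). XTH28 (VIT_01s0026g00200) rose from 4.42 ± 1.42 to 11.2 ± 0.964 FPKM (SD, n = 4; log2 fold change 1.37, adjusted p = 0.00126). The remaining XTH, VIT_11s0052g01280, overlapped: BL ranged from 0.477 to 1.94 FPKM, and NTC replicate 3, at 1.44 FPKM, stood apart from the other controls at up to 0.284 FPKM (log2 fold change 1.6, adjusted p = 0.107). In all, 5 of the 6 named cell wall genes rose and 0 fell, with a median log2 fold change of 2.08, but all 6 had been listed by the study for their response to BL or as markers (10.0% of all genes rose).

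The named iron genes comprised 3 ferritins and a transporter, chosen in the study for their response on these libraries, and all 4 rose (10.0% of all genes did). Ferritins store iron in a mineral core within plastids, where they keep it from feeding oxidative reactions. The marker ferritin VIT_08s0058g00430 was at 27.2, 50.5, 52.1 and 43.6 FPKM in BL and at 5.60, 24.8, 10.1 and 9.39 FPKM in NTC. The nearest libraries of the groups, BL replicate 1 and NTC replicate 2, were only 27.2 and 24.8 FPKM, and the ratio of the means was 3.48 (log2 fold change 1.96, SE 0.39, adjusted p = 0.00801). FER1 (VIT_08s0058g00410) and the ferritin VIT_08s0058g00440 rose by 1.67 (adjusted p = 0.00771) and 1.88 (adjusted p = 0.00674) on the log2 scale, and NTC replicate 2 was the highest control in both.

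These ferritin genes lie close together by their identifiers. Only uniquely mapped fragments were counted, so reads shared by near-identical copies would be missing, and the division of signal among the 3 is uncertain. YSL1 (VIT_02s0025g02510), a transporter of iron bound to nicotianamine, was at 2.87, 1.92, 2.85 and 3.63 FPKM in BL and at 1.15, 0.922, 0.948 and 0.753 FPKM in NTC, with a clear gap between the groups (log2 fold change 1.46, SE 0.25, adjusted p = 0.00301).

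Trehalose 6-phosphate is a signal of sucrose supply in plants, made by a synthase (TPS) and removed by a phosphatase. The 3 named genes of this route, listed in the study for their response to BL on these libraries, rose, beside 10.0% of all genes. The synthase VIT_01s0026g00280 was at 28.3, 19.7, 29.9 and 22.5 FPKM in BL and at 8.78, 5.73, 7.46 and 6.64 FPKM in NTC (log2 fold change 1.79, SE 0.17, adjusted p = 8.13e-05). Both other members were lower in level and rose by a similar factor. The synthase VIT_17s0000g08010 rose from 1.19 ± 0.401 to 5.24 ± 2.29 FPKM (SD, n = 4; log2 fold change 1.99, adjusted p = 0.00280). The phosphatase VIT_12s0028g01670, the enzyme of the second step, rose from 0.972 ± 0.417 to 4.08 ± 1.07 FPKM (log2 fold change 2.03, adjusted p = 0.00357).

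**Figure D3:**
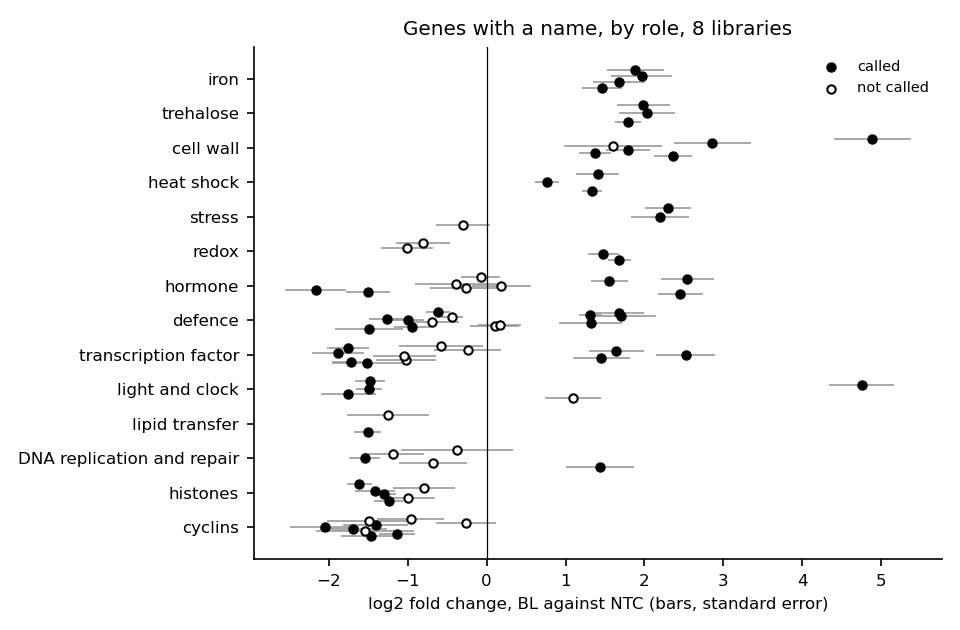
Log2 fold change of BL over NTC for each tested named gene of the roles shown, with called genes as filled points, the others as open points and bars of 1 standard error. Not drawn are the sulphur and thiamine genes, the receptor kinases, the dynein light chain, WEE1 and the genes of unknown function. Iron, trehalose and all but 1 of the cell wall genes are called higher, defence and transcription factor genes are called in both directions, and the called cyclins and histones are lower.

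The most abundant marker was the thiazole biosynthetic enzyme VIT_10s0116g00530 (B12), which makes the thiazole moiety of thiamine, vitamin B1. It stood at 1200, 1211, 1218 and 1440 FPKM in BL and at 279, 385, 405 and 299 FPKM in NTC (log2 fold change 1.90, SE 0.13, adjusted p = 1.64e-05). APR1 (VIT_00s1490g00010, B5), the reductase that commits sulphate to cysteine synthesis, moved the other way. Its values were 6.95, 8.56, 8.40 and 5.78 FPKM in BL and 36.7, 43.4, 67.8 and 40.5 FPKM in NTC. Every control was thus more than 4 times the highest BL library, and the mean fell by a factor of 6.35 (log2 fold change -2.62, SE 0.19, adjusted p = 3.39e-05).

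Genes of light and clock signalling split. The CCT motif constans-like gene VIT_06s0004g07210 (B2), of a family that times flowering and light responses in Arabidopsis, was at 13.1, 15.1, 21.5 and 22.1 FPKM in BL. Its NTC values were 0.207, 0.701, 1.33 and 0.417 FPKM, so that the lowest BL library stood far above the highest control (log2 fold change 4.75, SE 0.41, adjusted p = 7.53e-05). Constans 2 COL2 (VIT_14s0083g00640), of the same family, fell instead, from 66.2 ± 5.23 to 24.5 ± 7.59 FPKM (SD, n = 4; log2 fold change -1.48, adjusted p = 0.000674).

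HY5 is a bZIP factor that in Arabidopsis promotes light-dependent development. Of the 2 genes with this name, VIT_05s0020g01090 fell from 28.3 ± 2.86 to 10.2 ± 2.40 FPKM (SD, n = 4; log2 fold change -1.49, adjusted p = 0.000210). The other, VIT_04s0008g05210, was at 12.3, 30.4, 14.9 and 10.6 FPKM in BL and at 34.5, 76.0, 70.5 and 42.1 FPKM in NTC. It fell by 1.75 on the log2 scale over 8 libraries (adjusted p = 0.00783) and was not called without BL replicate 1 and NTC replicate 3 (log2 fold change -1.50, adjusted p = 0.0631). The salt tolerance homolog STH2 (VIT_03s0038g00340), a B-box protein, was at 6.16 to 10.9 FPKM in BL and at 2.05, 4.00, 7.86 and 3.47 FPKM in NTC. NTC replicate 3 was the control that lay within the BL range. The gene missed the threshold over 8 libraries (log2 fold change 1.09, adjusted p = 0.0600) and passed it in the 6-library fit (1.57, adjusted p = 0.00350). That fit also left out BL replicate 1, the lowest BL library at 6.16 FPKM, and the part of either library was not tested.

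Hormone genes rose and fell. CR9 (VIT_14s0068g01160), named as repressed by cytokinin, was at 4.42, 9.87, 4.95 and 6.36 FPKM in BL and at 1.25, 0.883, 1.47 and 0.515 FPKM in NTC (log2 fold change 2.54, SE 0.34, adjusted p = 0.000677). The auxin-conjugating enzyme GH3.8 (VIT_03s0091g00310), which lowers free auxin by joining it to amino acids, rose from 0.420 ± 0.147 to 2.72 ± 0.579 FPKM (SD, n = 4; log2 fold change 2.46, adjusted p = 0.000359). A receptor of abscisic acid of the PYL type (VIT_13s0067g01940) rose from 3.33 ± 1.07 to 9.90 ± 2.50 FPKM (log2 fold change 1.56, adjusted p = 0.00161).

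IAA31 (VIT_05s0020g01070), of the family of repressors that auxin removes, was at 1.02, 2.11, 1.84 and 0.461 FPKM in BL and at 7.14, 4.62, 5.33 and 5.75 FPKM in NTC. All controls lay above every BL library (log2 fold change -2.16, SE 0.39, adjusted p = 0.00421). Salicylic acid carboxyl methyltransferase (VIT_04s0023g02240), which turns salicylic acid into its volatile methyl ester, fell from 18.6 ± 8.05 to 6.28 ± 1.77 FPKM (SD, n = 4; log2 fold change -1.50, adjusted p = 0.00522). The remaining 4 of the 9 hormone genes were not called: the jasmonate repressor JAZ8, a gibberellin 2-oxidase and 2 phytosulfokine precursors had log2 fold changes of -0.39, -0.25, -0.07 and 0.18.

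Of the 13 defence genes tested 4 rose and 5 fell, with a median log2 fold change of -0.44, beside 10.0% and 7.28% of all genes. The split follows how the list was put together: the 4 that rose were listed for BL or BF (2 of them also for Akivi) and the 5 that fell were listed for Akivi. PR-1 (VIT_03s0088g00810), the classic reporter of salicylate signalling, was at 245, 151, 169 and 276 FPKM in BL and at 139, 153, 310 and 167 FPKM in NTC. Its groups overlapped widely, with the highest value of all in NTC replicate 3 (log2 fold change 0.16, SE 0.27, adjusted p = 0.729). Leucoanthocyanidin dioxygenase (VIT_13s0067g01020) bears the name of an enzyme of anthocyanin synthesis, and the study lists it under regulation of jasmonate signalling. It was at 2.46, 1.88, 2.13 and 2.14 FPKM in BL and at 0.387, 0.340, 1.81 and 0.445 FPKM in NTC. NTC replicate 3 lay just under the BL libraries, and the gene rose over all 8 (log2 fold change 1.71, SE 0.44, adjusted p = 0.0217). The call was lost without BL replicate 1, 3 or 4 or NTC replicate 2 or 4, with adjusted p of 0.0522 to 0.0612.

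Proteins with ankyrin repeats, a fold for binding other proteins, were named 3 times. VIT_14s0081g00360 rose from 8.79 ± 1.96 to 21.8 ± 2.53 FPKM (SD, n = 4; log2 fold change 1.32, adjusted p = 0.000302), and its neighbour by identifier VIT_14s0081g00370 rose by 1.68 (adjusted p = 0.00526). The third, VIT_05s0165g00010, did not pass the filter: it was at 0.125 to 0.626 FPKM in BL and at 0 in 3 of the 4 NTC libraries. The intracellular defence protein PR-10 was named for 2 genes. VIT_05s0077g01570 rose from 5.34 ± 3.73 to 11.4 ± 1.28 FPKM with an adjusted p of 0.0489, a call lost under 12 of 20 alternatives and without any 1 of 7 libraries (all but NTC replicate 3), and VIT_05s0077g01600 was not called (log2 fold change -0.69, adjusted p = 0.202). A plastocyanin domain-containing protein (VIT_12s0034g01140) was not called over 8 libraries (log2 fold change -0.44, adjusted p = 0.0553) and was called lower in the 6-library fit (-0.47, adjusted p = 0.0173).

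NIMIN-1 (VIT_07s0005g02070) and the NIM1-interacting 2-like gene (VIT_01s0011g03430), whose products in Arabidopsis bind the salicylate regulator NPR1, fell by 1.0 (adjusted p = 0.00829) and by 0.94 (adjusted p = 0.0218) on the log2 scale. The call of the second was lost without BL replicate 1 or 3 or NTC replicate 2 or 4 (adjusted p = 0.0507 to 0.0625). The pore-forming toxin-like gene Hfr-2 (VIT_07s0005g06090) was at 35.3, 22.6, 28.9 and 39.8 FPKM in BL and at 60.3, 62.1, 116 and 68.8 FPKM in NTC. Here too NTC replicate 3 was the most extreme control, in the direction away from BL (log2 fold change -1.25, SE 0.23, adjusted p = 0.00527). A GDSL lipase (VIT_19s0090g00660) fell by 0.61 and 1,8-cineole synthase (VIT_00s0372g00040), a terpene synthase, by 1.49 on the log2 scale (adjusted p = 0.0204 and 0.0366). Without BL replicate 1 and NTC replicate 3 neither passed the threshold (adjusted p = 0.0519 and 0.0712). Leaving out BL replicate 1 or 3 alone also ended the call of the lipase, and leaving out any 1 library other than NTC replicate 1 that of the synthase.

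Across the 12 genes that the study chose as Akivi markers, 11 were tested in BL against NTC, 0 rose and 4 fell, with a median log2 fold change of -0.80. The study sought markers altered by one treatment alone, so genes raised by BL on these libraries were left out of that list by its design and the 0 is no result. Set beside Akivi against NTC, which shares the NTC libraries, salicylic acid carboxyl methyltransferase had a log2 fold change of -1.50 in BL and 2.35 in Akivi, and Hfr-2 had -1.25 in BL and 1.38 in Akivi. For 1,8-cineole synthase the values were -1.49 in BL and 2.41 in Akivi, and for the GDSL lipase -0.61 in BL and 1.73 in Akivi. These 4 genes stood above the controls under Akivi and below them under BL. They were also called lower in BF against the same controls, with log2 fold changes, in the order given, of -1.53, -1.21, -1.54 and -0.63.

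Of the 4 named redox genes, the 2 that rose had been listed in the study for BL or as markers and the 2 that were not called for Akivi. Catalase (VIT_00s0698g00010), which breaks down hydrogen peroxide, was at 175, 132, 254 and 186 FPKM in BL and at 68.9, 50.7, 81.9 and 63.1 FPKM in NTC (log2 fold change 1.48, SE 0.20, adjusted p = 0.000865). Polyphenol oxidase (VIT_00s0480g00060), which oxidises phenolics to quinones, rose from 7.03 ± 1.32 to 22.6 ± 2.37 FPKM (SD, n = 4; log2 fold change 1.68, adjusted p = 4.74e-05). The 2 peroxidases were not called, with log2 fold changes of -1.0 for VIT_08s0058g00970 (adjusted p = 0.0586) and -0.80 for VIT_12s0055g01010 (adjusted p = 0.143).

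ERD15 (VIT_13s0067g02130), an early dehydration-induced protein, was at 113, 54.2, 145 and 105 FPKM in BL and at 16.9, 17.8, 29.5 and 17.5 FPKM in NTC. Every BL library was well above the controls, of which replicate 3 was the highest (log2 fold change 2.30, SE 0.29, adjusted p = 0.000697). A cold induced protein (VIT_04s0079g00810) rose from 10.0 ± 6.15 to 43.4 ± 13.5 FPKM (SD, n = 4; log2 fold change 2.20, adjusted p = 0.00332). Annexin ANN4 (VIT_00s0131g00080), a calcium-dependent membrane-binding protein, was not called (log2 fold change -0.30, adjusted p = 0.603).

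Small heat shock proteins hold unfolding proteins in a soluble state. The 4 named heat shock genes had been listed in the study for their response to BL or BF. Of these 3 were tested, and all 3 rose, beside 10.0% of all genes. HSP26.5-P (VIT_00s0992g00020) was at 39.4, 42.1, 46.4 and 48.6 FPKM in BL and at 15.1, 18.7, 21.4 and 15.1 FPKM in NTC, with little spread within either group (log2 fold change 1.34, SE 0.13, adjusted p = 0.000103). The class I small heat shock protein (VIT_13s0019g03160) and the heat shock factor C1 (VIT_11s0016g03940) rose by 1.41 (adjusted p = 0.00569) and 0.76 (adjusted p = 0.00644) on the log2 scale. The class II gene (VIT_12s0035g01910) did not pass the filter, with at most 0.678 FPKM in any BL library and at most 0.259 FPKM in any control.

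Of the 11 transcription factor genes tested 3 rose and 4 fell, beside 10.0% and 7.28% of all genes. The 3 that rose had been listed in the study for BL or as a marker, and the 4 that fell as lowered by BL. Their direction is therefore no finding, nor is it one that 3 of those that fell encode homeodomain-leucine zipper proteins. NAC domain containing protein 2 (VIT_07s0031g02610), of a plant-specific family active in stress and senescence, was at 42.0, 37.6, 59.9 and 76.5 FPKM in BL and at 5.12, 9.38, 19.4 and 6.86 FPKM in NTC (log2 fold change 2.52, SE 0.38, adjusted p = 0.00189). WRKY33 (VIT_08s0058g00690), a regulator of camalexin synthesis in Arabidopsis, rose from 2.20 ± 0.847 to 7.32 ± 3.49 FPKM (SD, n = 4; log2 fold change 1.65, adjusted p = 0.01). MYB14 (VIT_05s0049g01020), known in grapevine as an activator of stilbene synthase genes, rose from 0.404 ± 0.174 to 1.23 ± 0.291 FPKM (log2 fold change 1.45, adjusted p = 0.0197), a call lost without BL replicate 1 or 3 (adjusted p = 0.0599 and 0.0621).

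The homeodomain-leucine zipper gene HB-1 (VIT_01s0026g01550) was at 2.80, 2.55, 5.59 and 2.39 FPKM in BL and at 10.6, 11.4, 8.92 and 11.3 FPKM in NTC (log2 fold change -1.72, SE 0.24, adjusted p = 0.00112). LMI1/HB51 (VIT_08s0007g04200), which in Arabidopsis acts in leaf and floral meristem development, and HB-7 (VIT_15s0048g02870) fell by 1.88 (adjusted p = 0.00357) and 1.75 (adjusted p = 0.00168) on the log2 scale. The groups did not overlap in any of the 3. The fourth fall, bZIP6 (VIT_00s0541g00020), was at 0.219 to 1.09 FPKM in BL and 0.993 to 2.80 FPKM in NTC, so that the groups met (log2 fold change -1.51, adjusted p = 0.0392), and the call was lost without any 1 of 6 libraries (all but BL replicate 3 and NTC replicate 3).

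DIR1 (VIT_00s0333g00050), the lipid transfer protein that in Arabidopsis carries a systemic resistance signal, was among the abundant genes that fell. It was at 184, 164, 204 and 113 FPKM in BL and at 389, 533, 474 and 464 FPKM in NTC, with a wide gap between the groups (log2 fold change -1.51, SE 0.17, adjusted p = 0.000338). The other lipid transfer protein (VIT_08s0007g01370) was not called (log2 fold change -1.25, adjusted p = 0.129). Of the receptor kinases, PERK1 (VIT_01s0127g00670), of a family that senses the cell wall, was at 0.0268, 0.0740, 0.0726 and 0.109 FPKM in BL, within the counting floor of 3 fragments, and at 0.648, 0.521, 0.297 and 0.617 FPKM in NTC. It was called lower (adjusted p = 0.0234), and no fold is given because of that floor. The gene passed the filter through its NTC libraries alone. Without BL replicate 1 the adjusted p was 0.056.

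The named cell division genes had all been listed in the study as responding to BL or Akivi on these libraries without NTC replicate 3, so their direction is no finding, and the values below describe them and that control library. Cyclins are the regulatory subunits of the kinases that drive the cell cycle: D-type members act at its entry and A- and B-type members in DNA replication and mitosis. Of the 10 named cyclins 9 were tested, and 5 fell over all 8 libraries with 0 rises (7.28% of all genes fell). All 9 fell without BL replicate 1 and NTC replicate 3. With 1 library left out at a time 2 or 3 fell, except without NTC replicate 3, when 9 fell. The median log2 fold change was -1.46 with all libraries and -1.89 without those 2. Summed over the 10 cyclins, BL held 63.5, 52.6, 38.3 and 56.7 FPKM and NTC 194, 106, 45.2 and 178 FPKM. NTC replicate 3 thus lay within the BL range for the sum, whereas the other 3 controls lay above it, and its part in the result was not tested. In bulk RNA fewer dividing cells and less RNA per cell cannot be told apart.

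Cyclin 1b (VIT_13s0067g01420) was at 0.709, 0.692, 0.452 and 0.852 FPKM in BL and at 5.09, 3.41, 1.08 and 4.50 FPKM in NTC (log2 fold change -2.05, SE 0.44, adjusted p = 0.00944). Even NTC replicate 3, the lowest control, lay above every BL library for this gene. The B-type cyclin VIT_08s0040g00930 was at 4.04, 3.64, 3.22 and 3.38 FPKM in BL and at 20.0, 12.1, 4.02 and 18.7 FPKM in NTC (log2 fold change -1.69, SE 0.43, adjusted p = 0.0248). NTC replicate 3 and BL replicate 1 there met at 4.02 and 4.04 FPKM, and leaving both out gave -2.25 (adjusted p = 0.000140). The 8-library call was lost without any 1 of BL replicates 2, 3 or 4 or NTC replicates 1, 2 or 4 (adjusted p = 0.0505 to 0.0725).

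Cyclin D3;2 (VIT_03s0180g00040), of the class that in Arabidopsis leaves sustains proliferation, shows the same control most plainly. It was at 13.3, 11.1, 6.00 and 11.4 FPKM in BL and at 70.6, 27, 6.97 and 54.6 FPKM in NTC. NTC replicate 3 fell inside the BL range and the other controls far above it. The gene was not called over 8 libraries (log2 fold change -1.53, adjusted p = 0.124) and was called lower without BL replicate 1 and NTC replicate 3 (-2.35, adjusted p = 0.0104). Cyclin B3, cyclin D3;1 and CYCB2_4 likewise passed the threshold only in the 6-library fit of these 2 fits, with log2 fold changes there of -1.22, -0.80 and -2.01. Cyclin delta-2 (VIT_03s0091g01060) was called in both fits and did not overlap, falling from 24.1 ± 7.37 to 10.7 ± 2.45 FPKM (SD, n = 4; log2 fold change -1.14, adjusted p = 0.00818).

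**Figure D4:**
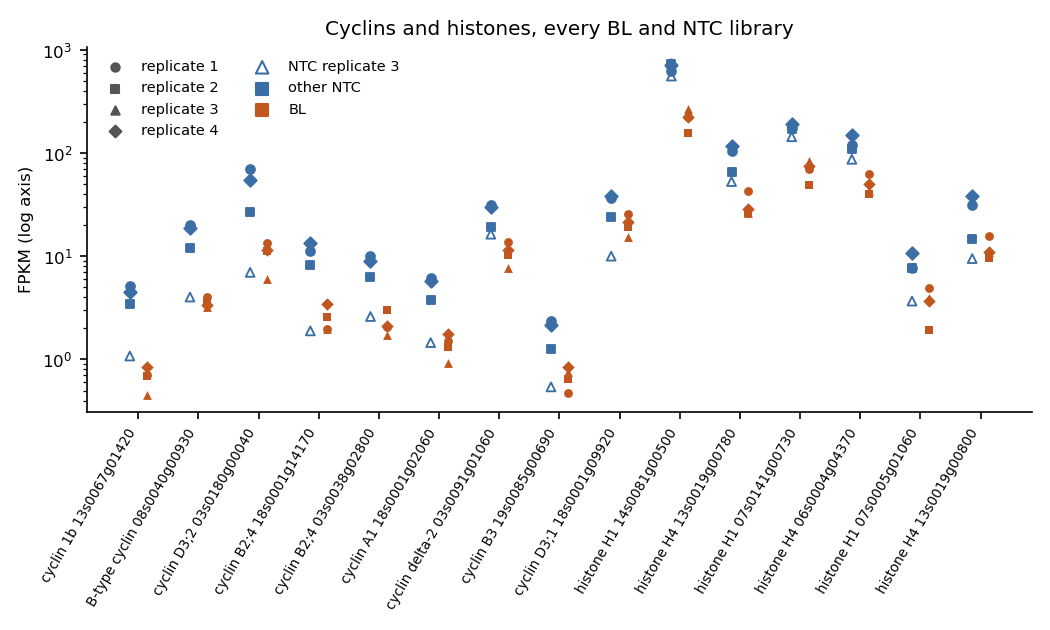
FPKM of the 9 tested cyclin and 6 histone genes in each BL and NTC library on a log axis, with NTC replicate 3 marked. All 10 named cyclins of NTC replicate 3 sum to 45.2 FPKM, within the BL range of 38.3 to 63.5 FPKM, whereas its histones sum to 852 FPKM, above the BL range of 282 to 436 FPKM.

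Histones package DNA, and those of the core nucleosome are made mainly during DNA replication. The 6 named histone genes had been listed in the study for their response to BL on the 6 libraries, where all 6 fell here too. Over all 8 libraries 4 of them fell. Their summed level did not overlap: BL held 419, 282, 436 and 393 FPKM and NTC 1060, 1102, 852 and 1217 FPKM. The linker histone H1 gene VIT_14s0081g00500, the most abundant, was at 222, 155, 269 and 224 FPKM in BL and at 626, 734, 555 and 711 FPKM in NTC. NTC replicate 3 was again the lowest control but lay far above every BL library (log2 fold change -1.61, SE 0.16, adjusted p = 0.000145).

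The second linker histone, VIT_07s0141g00730, fell from 169 ± 19.3 to 69.5 ± 14.7 FPKM (SD, n = 4; log2 fold change -1.30, adjusted p = 0.000460). Of the core histones, the H4 genes VIT_13s0019g00780 and VIT_06s0004g04370 fell by 1.41 (adjusted p = 0.00521) and 1.24 (adjusted p = 0.00141) on the log2 scale. The H4 gene VIT_13s0019g00800 and the H1 gene VIT_07s0005g01060 were not called over 8 libraries (adjusted p = 0.205 and 0.0767) and were called lower over the 6 libraries, with log2 fold changes of -1.30 (adjusted p = 0.0336) and -1.46 (adjusted p = 0.00643). In both NTC replicate 3 reached down to BL levels. H4 copies can be close to identical, so fragments counted for one gene by unique mapping may leave out those shared with another.

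WEE1 (VIT_07s0104g01740), the kinase that delays mitosis, was at 0.394, 0.163, 0.267 and 0.322 FPKM in BL and at 1.12, 0.716, 0.388 and 0.860 FPKM in NTC. It overlapped through NTC replicate 3 and was called only without that library and BL replicate 1 (adjusted p = 0.0402, against 0.0878 over 8 libraries). The 5 named genes of DNA replication and repair included 1 rise and 1 fall over 8 libraries, and over the 6 libraries 0 rises and 2 falls among the 2 that passed the filter. The second of these falls was that of a subunit of the origin recognition complex (VIT_01s0011g04400), which marks replication start sites, with a log2 fold change of -1.54 (adjusted p = 0.0328) there and -1.18 (adjusted p = 0.0613) over 8 libraries. A gene named as a DNA mismatch repair protein (VIT_01s0011g03440) fell from 206 ± 45.9 to 70.1 ± 13.5 FPKM (SD, n = 4; log2 fold change -1.54, adjusted p = 0.000631). The study lists this gene under regulation of systemic acquired resistance, so its place among repair genes rests on the name alone. MSH3 (VIT_00s0388g00030), also named for mismatch repair, was at 0.434 to 1.27 FPKM in BL and at 0.145 to 0.311 FPKM in NTC (log2 fold change 1.44, adjusted p = 0.0436). Every control was under 0.5 FPKM, so it passed the 8-library filter through BL alone, and its level was too low to pass that of the 6-library fit. That call was lost without NTC replicate 1, 2 or 4 (adjusted p = 0.0636 to 0.104).

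Outside these roles stood a dynein light chain and several genes without a known function. The dynein light chain LC6 (VIT_09s0002g04280), a small subunit shared by motor and other complexes, was at 68.4, 61.0, 92.0 and 60.8 FPKM in BL and at 6.29, 9.21, 17.7 and 7.96 FPKM in NTC (log2 fold change 2.86, SE 0.28, adjusted p = 0.000193). The largest fall of a gene above 100 FPKM in the controls among the genes named here was that of VIT_13s0067g02560, of unknown function. Its values were 73.6, 127, 73.8 and 63.8 FPKM in BL and 550, 931, 686 and 677 FPKM in NTC, and the mean was 8.42 times lower in BL (log2 fold change -3.10, SE 0.22, adjusted p = 3.20e-05). The marker of unknown function B3 (VIT_16s0100g00740) rose from 0.425 ± 0.328 to 5.15 ± 2.06 FPKM (SD, n = 4; log2 fold change 3.49, adjusted p = 0.000990).

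Genes without any name in the sources made up much of the extremes. Ranks here are among DEGs of both fits without overlap and with a mean of 2 FPKM or more in the higher group. Of 171 such rises the steepest with a name ranked 1, 2, 3, 6, 7 and 13. Of 133 such falls the steepest with a name ranked 6, 19, 34, 37, 54 and 67. The genes ranked between them had no name. VIT_14s0068g01790 rose from 2.76 ± 1.05 to 26.1 ± 9.77 FPKM (SD, n = 4; log2 fold change 3.17, adjusted p = 0.000326). VIT_16s0050g02100 rose from 1.22 ± 0.554 to 10.2 ± 3.11 FPKM (log2 fold change 3.01, adjusted p = 0.000216). Of the falls, ENSRNA049995824 was at 0 in all 4 BL libraries and at 1.43, 2.64, 5.00 and 0.821 FPKM in NTC, where it held at most 6 fragments, and no fold is given. VIT_01s0011g06670 held at most 1 fragment in any BL library and was at 1.96 to 6.36 FPKM in NTC.

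Lyophilized and fresh cells were compared directly, to ask where the form of the product was followed by another response. In a fit of all 16 libraries 27 of 20246 genes differed between BL and BF, 0.133% of those tested, 18 of them higher in BL and 9 lower, while 2617 had an unadjusted p under 0.05. The median size of the log2 difference over the genes called between BL and NTC was 0.197 between BL and BF and 0.745 between BL and NTC. Those genes were chosen by their difference between BL and NTC, so the larger median there follows from the choice and is no finding. Of those 3399 genes 20 were called between BL and BF. The count of 27 over all genes depended on single libraries: 0 genes were called without BF replicate 3, BL replicate 1 or BL replicate 3, and 133 without BF replicate 4. A difference that missed the threshold does not show that the forms act alike.

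Of the 102 named genes 2 differed between BL and BF. The trehalose 6-phosphate synthase VIT_01s0026g00280 was at 6.28, 7.82, 8.19 and 15.7 FPKM in BF, below every BL library, the lowest of which was at 19.7 FPKM (log2 difference 1.46, SE 0.25, adjusted p = 0.0395). XTH28 (VIT_01s0026g00200) was at 5.61, 6.54, 4.60 and 4.2 FPKM in BF, against at least 10.4 FPKM in BL (log2 difference 1.10, SE 0.20, adjusted p = 0.0439). Against NTC, which BL and BF share as control, the synthase had a log2 fold change of 1.79 in BL and 0.33 in BF, and XTH28 had 1.37 in BL and 0.27 in BF. XTH15 (VIT_05s0062g00250) was at 67.3 to 158 FPKM in BF, all below the 202 to 358 FPKM of BL, and missed the threshold (log2 difference 1.4, SE 0.28, adjusted p = 0.0746). The unnamed gene VIT_16s0050g02100 was called as well (log2 difference 1.97, SE 0.35, adjusted p = 0.0402).

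The 15 Bacillus markers were picked in the study from genes that BL and BF shared, so their small differences between the forms are no finding: 0 were called, beside 0.133% of all genes, with a median log2 difference of 0.09. For the pectin methylesterase inhibitor VIT_16s0022g00860 the log2 difference was -0.27 (SE 0.56) and for the constans-like gene VIT_06s0004g07210 it was -0.51 (SE 0.45). APR1 (VIT_00s1490g00010) was at 3.97 to 4.49 FPKM in BF and 5.78 to 8.56 FPKM in BL, without overlap but also without a call (log2 difference 0.80, SE 0.17, adjusted p = 0.109).

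**Figure D5:**
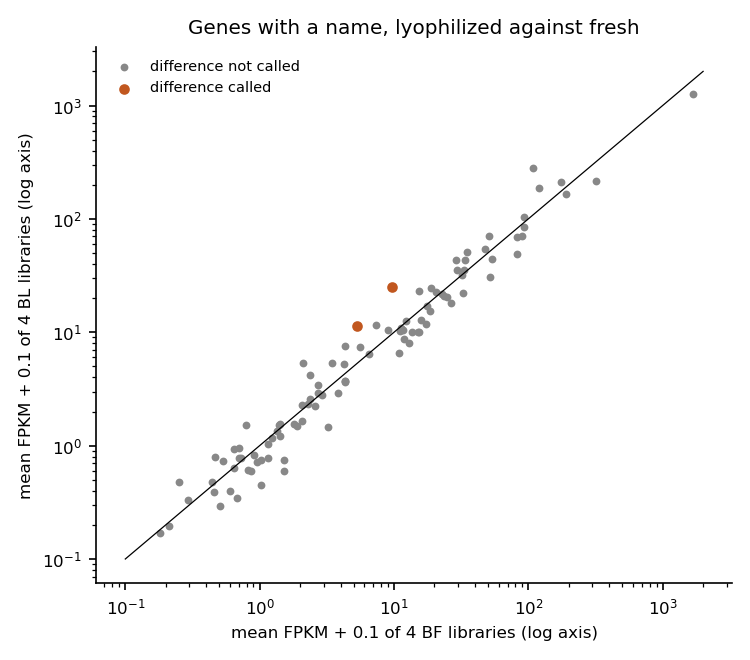
Mean FPKM of each tested named gene in the 4 BL libraries against its mean in the 4 BF libraries, both on log axes with 0.1 FPKM added and with the line of equality. The 2 genes whose difference was called, the trehalose 6-phosphate synthase and XTH28, lie above the line.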

How the data were processed

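Poly(A) RNA of the 16 leaf pools was sequenced as stranded paired-end libraries. The authors deposited FPKM values, made by trimming with BBDuk, aligning to the 12X grapevine genome with STAR 2.6, counting uniquely mapped fragments with featureCounts 1.6.1 and scaling in edgeR; FastQC 0.10.1 and CASAVA 1.8.2 are also in the submitters' processing notes. Reads of near-identical copies are therefore lost, and levels compare between genes per length.

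Here log2(FPKM + 0.1) was fitted in limma 3.58.1 (R 4.3.3; trend and robust moderation, Benjamini-Hochberg adjustment) for genes with 0.5 FPKM in 3 libraries. A pseudocount understates the fold changes of low genes. Whole fragments could be rebuilt from the FPKM values, giving each library's depth; a count of 3 fragments was the floor. BL and BF were compared in a 4-group fit of 16 libraries. SDs are over 4 libraries, and p-values measure the spread among these pooled replicates. The script was tested on simulated data.

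Named genes were the 8 largest rises and 8 largest falls among DEGs of both fits with groups that did not overlap and a mean of 2 FPKM or more in the higher group (at most 2 unnamed each way), the 15 markers, up to 4 called genes of each role and those needed to describe it. Members and lists were chosen with earlier results of these data known. Gene lists by product name, cell type markers and promoter motifs were not used here, since 0 identifiers matched the reference names. Alternatives changed the pseudocount, filter, scaling, moderation and libraries.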

Additional observations from a re-analysis of the deposited data

Results flagged for a closer look

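Among 200 sets of 4 libraries tested, 7 named genes had a library standing apart from the other 3 of its group by Dixon's criterion. Chance alone passes it in about 1 in 20 sets, so 7 flags are no more than chance gives and are only described. In 4 of the 7 the library was NTC replicate 3. In NTC replicate 3, ERD15 was at 29.5 FPKM against 16.9 to 17.8 FPKM in the other controls. Leucoanthocyanidin dioxygenase was at 1.81 FPKM against 0.340 to 0.445 FPKM, the ankyrin repeat gene VIT_14s0081g00360 at 11.7 FPKM against 7.69 to 8.03 FPKM, and VIT_09s0002g03340, of unknown function, at 7.60 FPKM against 1.74 to 2.24 FPKM. For these 4 genes the library stood on the side of BL. Within BL, the thiazole biosynthetic enzyme was at 1440 FPKM in replicate 4 against 1200 to 1218 FPKM, and JAZ8 at 1.18 FPKM in replicate 2 against 0.257 to 0.284 FPKM. VIT_01s0011g03440, named as a mismatch repair protein, was at 50.03 FPKM in replicate 3 against 74.6 to 79.5 FPKM.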

How the results depend on the processing

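Of 100 tested genes followed by name or identifier 69 were called in BL against NTC, of which 64 passed the filter of all 20 alternatives and 49 of those kept their call in each. No alternative reversed the direction of a called gene. With a pseudocount of 1 FPKM 108 DEGs rose and 105 fell, and with the 6 libraries that the study kept 374 DEGs fell; a larger pseudocount shrinks the fold changes of low genes by construction, and the cause of the other change was not tested. Leaving out 1 library at a time gave 2253 to 4204 called genes, 1300 to 2335 rises, 940 to 1869 falls and 155 to 357 DEGs that fell, with the highest values without NTC replicate 3. The cyclins called lower ranged from 2 to 9. Between BL and BF 0 to 133 genes were called with 1 library left out, and 0 without the 4 libraries that the study excluded. Calls lost most often were PR-10 (VIT_05s0077g01570, 12 alternatives), 1,8-cineole synthase (11), VIT_04s0008g04200 (10), cyclin A1 (9) and bZIP6 (8).

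The replicate numbers did not pair the samples: deviations of same-numbered BL and NTC libraries correlated at 0.0258, -0.0623, 0.1193 and -0.0043. With the replicate number as a block 3272 genes were called over 8 libraries, with 282 DEGs higher and 229 lower, and 2549 over the 6 libraries, with 338 and 305. There 2 of the 4 iron genes were called higher, and the ferritin VIT_08s0058g00440 and YSL1 were not. Between BL and BF the block gave 33 calls. Genes of a few fragments limit the precision at these depths.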
